A study of Mus musculus with 10 samples.

Results

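Fatty acid oxidation and ketogenesis were followed through 35 genes, chosen by name for their roles in taking up, activating, importing and breaking down fatty acids and in making ketone bodies. All 35 were among the 16697 gene entries of the expression table. The series holds RNA sequencing of mouse liver in 10 libraries, with n = 4 normal livers (NL), n = 3 c-MYC tumors and n = 3 c-MYC/FOXO1AAA tumors. Tumors were made by hydrodynamic tail vein injection, which forces plasmids into hepatocytes, where a transposase inserts them. The c-MYC group received the oncogene with the empty pT3-EF1α vector, and the c-MYC/FOXO1AAA group received it with a MYC-tagged FOXO1 that AKT cannot switch off, so that both tumor groups share c-MYC and only 1 carries FOXO1AAA. One description of the control tumors adds MCL1, so the contrast between the tumor groups may also contain an effect of MCL1. The study's list of injected plasmids gives the control mice c-MYC, pT3 and the transposase plasmid, without MCL1. NL was labeled wild-type liver, and an injection of empty vector into these mice is not mentioned. All 10 samples carry the strain label C57BL/6 and the genotype label WT, while the extraction protocol and the methods name FVB mice. Ages are not given. The methods give as many mice in each group as there are libraries.

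Fatty acids enter the hepatocyte through transporters, are bound by carrier proteins and are joined to coenzyme A (CoA) by acyl-CoA synthetases. The carnitine shuttle carries the acyl groups into mitochondria, where a cycle of dehydrogenase, hydratase and thiolase reactions (the β-oxidation spiral) shortens them to acetyl-CoA, while peroxisomes shorten very long and branched chains. In the fasting liver the acetyl-CoA is turned into ketone bodies, which hepatocytes export and do not themselves burn, and the nuclear receptor PPARα drives many genes of all these steps.

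Values are FPKM (reads set against gene length and effective library size), recovered from the deposited log2 values. Differences are log2 fold changes tested with limma treat against a change of 1.5-fold over 14017 genes, and called where the p adjusted by Benjamini-Hochberg was under 0.05. The libraries held 13.12 to 20.54 M reads. The scaling factors held in the deposited values were 0.649 to 0.684 in NL, 1.256 to 1.295 in c-MYC and 1.454 to 1.502 in c-MYC/FOXO1AAA, so the choice of scaling bears on every contrast. Foxo1 rose from 5.62 FPKM (n = 3, SD 0.721) in c-MYC to 83.1 FPKM (n = 3, SD 12.8) in c-MYC/FOXO1AAA, by 3.88 (SE 0.14, adjusted p 3.4e-08 by limma), with every c-MYC/FOXO1AAA library (70.1 to 95.6 FPKM) above every other.

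All 5 peroxisomal members were lower in c-MYC tumors than in normal liver, against 4 of the 8 members of the mitochondrial spiral and 1 of the 2 ketone body members, where 23.6% of all tested genes were lower. In c-MYC/FOXO1AAA tumors all members of these 3 steps were lower than in normal liver, against 26.6% of all tested genes. In c-MYC the peroxisomal members together stood at 10.2% of their NL level, the ketone body members at 33% and the spiral at 49.7%, and in c-MYC/FOXO1AAA at 3.6%, 9.66% and 14.1%. Single genes weighed on these sums. Without Acaa1b the peroxisomal sums were 17% and 6.26% of NL, and without Acaa2 the spiral sums were 75.7% and 20.3%, while the ketone body sum in c-MYC combined Bdh1 at 8.85% with Acat1 at 85.9%. The scaling weighed on them as well. With the FPKM total made equal in all libraries, the peroxisomal, ketone body and spiral sums were 19.4%, 62.9% and 94.5% of NL in c-MYC and 7.66%, 20.6% and 29.9% in c-MYC/FOXO1AAA. Fabp1 alone made up 61.8% of the FPKM of all members in NL. Without it, the other 34 members summed to 7370.0 FPKM (n = 4, SD 193) in NL, 2527 FPKM (n = 3, SD 96.7) in c-MYC and 842 FPKM (n = 3, SD 166) in c-MYC/FOXO1AAA, which is 34.3% and 11.4% of NL (65.2% and 24.3% with the same FPKM total).

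**Figure D1:**
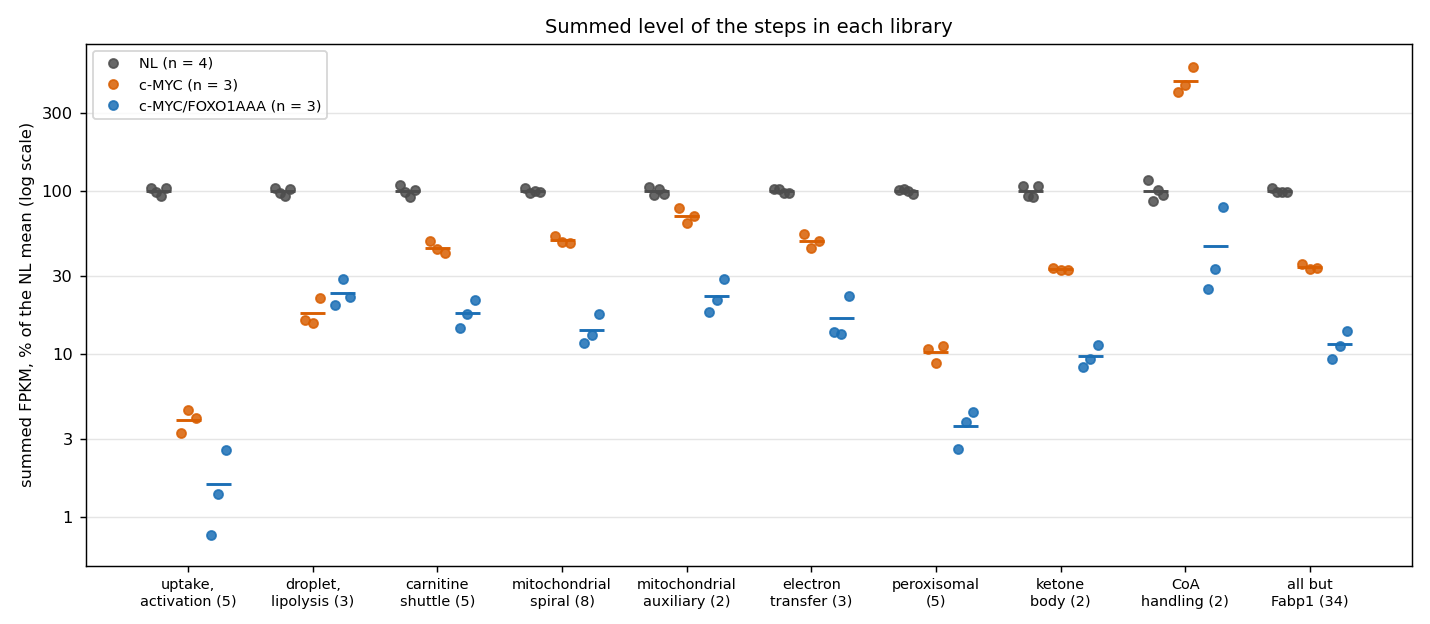
Summed FPKM of the members of each step in each library, as a percentage of the NL mean, on a log axis. Points are libraries (NL n = 4, c-MYC n = 3, c-MYC/FOXO1AAA n = 3) and bars are group means. The peroxisomal sum stood at 10.2% of NL in c-MYC, below the 49.7% of the mitochondrial spiral, on the deposited scaling. The droplet and lipolysis sum differs from the other steps in that its c-MYC/FOXO1AAA mean, 23.6% of NL, is above its c-MYC mean of 17.9%, with overlapping libraries, and the CoA handling sum is above NL in c-MYC through Acot1.

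Of the 34 members that passed the filter on low values, 24 were lower in c-MYC than in NL and 1 was higher (Acot1), while 9 did not pass the threshold. Over all tested genes, 23.6% were lower and 24.5% higher in this contrast. The median log2 fold change was -1.58 for the members and 0.08 for all genes. Between the tumor groups, 22 members were lower with FOXO1AAA than in the control tumors and 0 were higher with limma treat, against 12.7% lower and 15.9% higher over all genes. The median was -1.53 for the members and 0.03 for all genes. In c-MYC/FOXO1AAA against NL, 30 members were lower and 0 higher with limma treat, against 26.6% lower and 31.2% higher over all genes, with medians of -2.74 and 0.21. In bulk tissue, fewer cells of a type and less RNA per cell cannot be told apart. The c-MYC libraries enter both contrasts, whose values are therefore given side by side. The groups are different mice, and FOXO1AAA was injected together with c-MYC. Words such as then and further give the order of the contrasts and no course in time.

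The count in c-MYC against NL depended on the scaling. With the FPKM total made equal in all libraries, 15 members were lower and 6 higher, and the median of all genes moved from 0.08 to 1.01. The shares of all genes called under this and the other alternatives were not counted, so the members' counts there have no such comparison. Calls lost were those of Acsl1, Cpt1a, Cpt2, Pnpla2, Acadvl, Acadl, Hadha, Etfb and Etfdh, and Cd36, Crat, Acadm, Hadhb and Eci1 passed as higher beside Acot1. With quantile normalization 17 were lower, the calls lost being those of Acsl1, Cpt1a, Cpt2, Pnpla2, Acadl (limma adjusted p 0.523), Hadha (limma adjusted p 1) and Etfdh (limma adjusted p 0.228). Between the tumor groups the same FPKM total left 20 lower and 1 higher, with the median of all genes at 0.2. With no threshold on the size of the change, 2 members were higher with FOXO1AAA than in the control tumors. Limma-voom on recovered reads gave 0 higher there.

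The members fell into 4 patterns of calls, while Cd36 passed neither contrast and Cpt1b was not tested. Lower in c-MYC and lower again in c-MYC/FOXO1AAA were 13 members: Slc27a2, Acsl1, Cpt1a, Cpt2, Acadvl, Hadha, Acaa2, Decr1, Etfdh, Acaa1a, Acaa1b, Decr2 and Bdh1. Lower in c-MYC with no call between the tumor groups were 11, namely Fabp1, Acsl5, Plin2, Pnpla2, Angptl4, Slc25a20, Acadl, Etfb, Ehhadh, Eci2 and Vnn1. With no call in c-MYC and lower in the second contrast were 8: Crat, Acadm, Acads, Hadhb, Hadh, Eci1, Etfa and Acat1. Acot1 was higher in c-MYC than in NL and lower in the second contrast. A missing call between the tumor groups does not show that a gene was unchanged. In simulated data, only 4 of 82 genes changed there by 1 on the log2 scale were called.

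**Figure D2:**
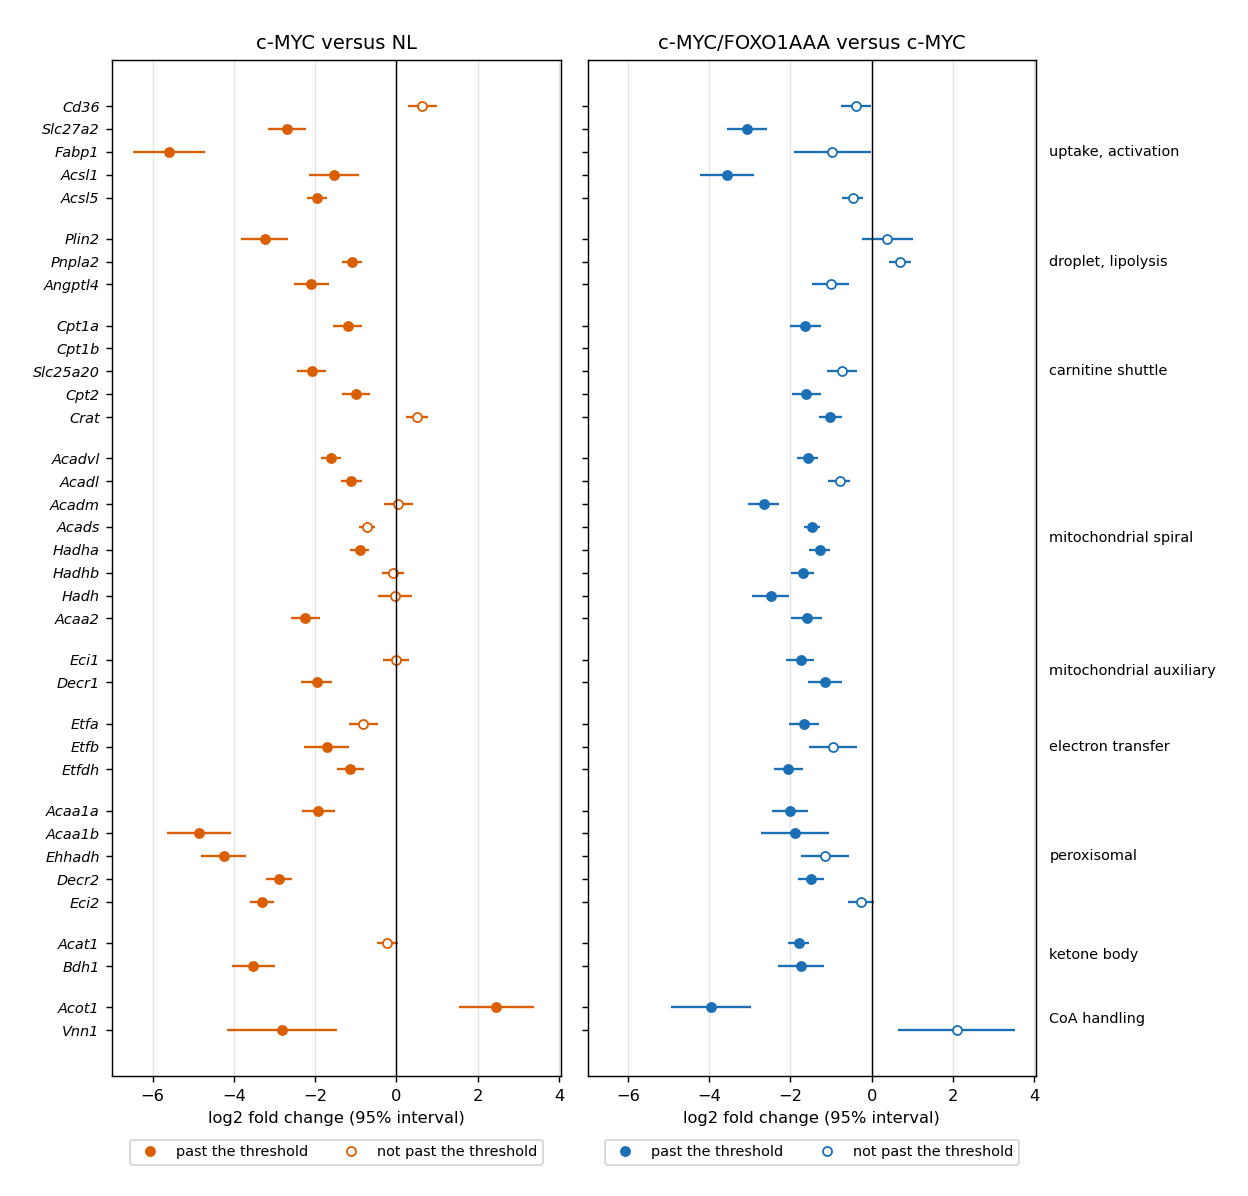
Log2 fold change of each member with its 95% interval from limma, for c-MYC versus NL on the left and c-MYC/FOXO1AAA versus c-MYC on the right, ordered by step. Filled points passed the threshold and open points did not. Peroxisomal members lie far to the left in the left panel, and the 8 members of the mitochondrial spiral lie to the left of 0 in the right panel. Cpt1b was not tested.

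In the 250 bases before the gene start, 28 of the 35 members had a RefSeq window (GRCm38.p6). These were searched on both strands for the direct repeat with 1 spacer base that PPARα and RXRα bind (DR1), spelled as AGGTCA, any base and AGGTCA again, with up to 2 mismatches. A match was present in 4 members, namely Fabp1, Plin2, Cd36 and Etfa, and in 3.24% of 32841 windows of all genes. The forkhead site TGTTTAC, the insulin response sequence CAAAACAA and the E-box CACGTG were present in 0 of the members' windows, against 3.17%, 2.21% and 6.02% of all windows. With only 30 windows of members, 0 matches was not tested against these shares and does not show that such sites are absent. Sequence outside the 250 bases was not searched. The 4 stretches with a DR1 match are shown because Ppara and Rxra themselves changed between the groups. Each runs 5′ to 3′ on the strand of the gene, leaves out annotated exons, and has the match in capitals, which lies on the opposite strand in all 4 and has 1 mismatch in Fabp1 and 2 in the others.
Fabp1, GRCm38.p6 chr6:71199752-71199826, plus strand: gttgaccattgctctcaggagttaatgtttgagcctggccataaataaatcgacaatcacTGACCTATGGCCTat
Plin2, GRCm38.p6 chr4:86670212-86670309, minus strand: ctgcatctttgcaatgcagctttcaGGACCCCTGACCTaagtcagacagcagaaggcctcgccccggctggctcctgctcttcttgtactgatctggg
Cd36, GRCm38.p6 chr5:17835897-17836019, minus strand: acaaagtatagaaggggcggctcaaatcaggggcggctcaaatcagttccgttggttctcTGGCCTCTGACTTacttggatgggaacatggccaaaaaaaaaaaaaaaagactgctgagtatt
Etfa, GRCm38.p6 chr9:55512248-55512380, minus strand: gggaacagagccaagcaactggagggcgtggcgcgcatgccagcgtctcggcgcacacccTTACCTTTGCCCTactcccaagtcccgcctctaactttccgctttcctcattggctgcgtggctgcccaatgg
The matches begin 67 bases before the RefSeq start in Fabp1, 225 in Plin2, 63 in Cd36 and 77 in Etfa. The stretch of Cd36 lies inside the annotated gene, between exons of longer transcripts. A match is a run of letters and does not show that a factor binds there. The genes with a match did not share a pattern of calls. Fabp1 and Plin2 were called lower only in c-MYC against NL, Etfa only between the tumor groups, and Cd36 in neither contrast.

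Uptake, binding and activation came first in the pathway, and 4 of its 5 members were lower in c-MYC, against 23.6% of all tested genes. Fabp1 (GRCm38 chr6:71199827-71205023, plus strand) encodes the main fatty acid binding protein of the hepatocyte and carries a DR1 match. It held 12403, 11808, 10982 and 12583 FPKM in the NL libraries, 184, 282 and 286 FPKM in c-MYC and 59.5, 123 and 270 FPKM in c-MYC/FOXO1AAA. Every tumor library lay far below every normal liver, and the tumor groups overlapped. Fabp1 fell by 5.6 on the log2 scale (SE 0.4, adjusted p 1.35e-06 by limma) relative to NL. Between the tumor groups the difference was -0.97 (SE 0.43, adjusted p 0.481 by limma), and without c-MYC/FOXO1AAA 3 it passed the threshold, at -1.52 (limma adjusted p 0.0176), with a group mean of 91.4 FPKM in place of 151 FPKM.

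Slc27a2, a very long chain acyl-CoA synthetase and transporter, held 651, 605, 625 and 606 FPKM in NL, 91.3, 102 and 96.4 FPKM in c-MYC and 7.27, 13.5 and 15.5 FPKM in c-MYC/FOXO1AAA. Its 3 groups were separate, in descending order. On the log2 scale it differed by -2.69 (SE 0.21, adjusted p 4.98e-06 by limma) in c-MYC and by -3.07 (SE 0.22, adjusted p 5.01e-06 by limma) between the tumor groups. Acsl1, the main long chain acyl-CoA synthetase of the liver, stood at 367, 346, 347 and 348 FPKM in NL, 106, 157 and 106 FPKM in c-MYC and 6.3, 9.97 and 17.3 FPKM in c-MYC/FOXO1AAA. It fell by 1.54 on the log2 scale (SE 0.28, adjusted p 0.00799 by limma) relative to NL (not past the threshold with quantile normalization, limma adjusted p 0.377). Its difference between the tumor groups was larger, at -3.55 (SE 0.3, adjusted p 1.36e-05 by limma). Acsl5, another synthetase, fell by 1.96 on the log2 scale (SE 0.11, adjusted p 7.57e-07 by limma) relative to NL, with no call between the tumor groups (-0.47, limma adjusted p 1). Cd36, a fatty acid translocase at the cell surface, had 9.35 FPKM (n = 4, SD 1.6) in NL, 14.5 FPKM (n = 3, SD 0.226) in c-MYC and 11.2 FPKM (n = 3, SD 2.01) in c-MYC/FOXO1AAA, and passed the threshold in no contrast on the deposited scale.

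The 3 droplet and lipolysis members were all lower in c-MYC, and none passed between the tumor groups with limma treat. Over all tested genes 23.6% were lower in c-MYC, and between the tumor groups 12.7% were lower and 15.9% higher. Their sum was 543 to 610 FPKM in NL, 89.3 to 128 FPKM in c-MYC and 116 to 166 FPKM in c-MYC/FOXO1AAA. Plin2, which coats lipid droplets, held 460, 427, 364 and 452 FPKM in NL, 33.3, 40.2 and 67.2 FPKM in c-MYC and 41, 81.9 and 60.7 FPKM in c-MYC/FOXO1AAA. The tumor groups overlapped and both lay below NL. Plin2 fell by 3.24 on the log2 scale (SE 0.26, adjusted p 5.56e-06 by limma). Pnpla2, the first triglyceride lipase of the droplet, fell by 1.09 on the log2 scale (SE 0.11, adjusted p 0.00159 by limma) relative to NL and stood at 68.3 FPKM (n = 3, SD 8.82) in c-MYC/FOXO1AAA against 41.8 FPKM (n = 3, SD 4.47) in c-MYC. All 3 c-MYC/FOXO1AAA libraries of Pnpla2 lay above all 3 c-MYC libraries, but the log2 fold change of 0.7 did not pass (limma adjusted p 0.435). With quantile normalization it did, at 0.99 (limma adjusted p 0.016), while the fall in c-MYC then did not (-0.79, limma adjusted p 0.109). Angptl4, a secreted inhibitor of lipoprotein lipase, fell by 2.09 on the log2 scale (SE 0.19, adjusted p 2.86e-05 by limma) relative to NL. Its tumor group difference of -1.01 did not pass (limma adjusted p 0.0974), and without c-MYC 2 it did, at -1.16 (limma adjusted p 0.0477).

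In the carnitine shuttle, 3 of the 4 tested members were lower in c-MYC than in NL and 3 between the tumor groups, against 23.6% and 12.7% of all tested genes. Cpt1a, the liver carnitine palmitoyltransferase that controls entry into mitochondria, held 103, 88.1, 81 and 98 FPKM in NL, 47.7, 40.5 and 33.9 FPKM in c-MYC and 10.7, 13 and 16.1 FPKM in c-MYC/FOXO1AAA. The groups were separate, in that order. It fell by 1.19 on the log2 scale (SE 0.16, adjusted p 0.00422 by limma) relative to NL, which quantile normalization left short of the threshold (-0.89, limma adjusted p 0.0913), and by a further 1.63 on the log2 scale (SE 0.17, adjusted p 0.000338 by limma). Cpt2, which transfers the acyl group back to CoA inside the mitochondrion, had 95.6, 90.8, 83.6 and 87.3 FPKM in NL, 45.9, 44.6 and 44.2 FPKM in c-MYC and 11.5, 13.9 and 19.7 FPKM in c-MYC/FOXO1AAA. All groups were separate for Cpt2 too. Its first log2 fold change, -0.99 (SE 0.15, adjusted p 0.0259 by limma), did not pass without NL 1, c-MYC 2 or c-MYC 3 (limma adjusted p 0.0551, 0.058 and 0.0619) or with quantile normalization (limma adjusted p 0.44), while its second was -1.61 (SE 0.16, adjusted p 0.000286 by limma).

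Crat, which moves short acyl groups between carnitine and CoA, went the other way in c-MYC without passing the threshold. Its levels were 13.8, 13.1, 10.7 and 13.1 FPKM in NL, 18.2, 19.8 and 15.9 FPKM in c-MYC and 8.22, 9.42 and 8.91 FPKM in c-MYC/FOXO1AAA. The c-MYC libraries were the highest and the c-MYC/FOXO1AAA libraries the lowest. The change between the tumor groups was -1.02 (SE 0.13, adjusted p 0.0144 by limma), and it missed the threshold without c-MYC/FOXO1AAA 1 or c-MYC 2 (limma adjusted p 0.0548 and 0.0533) and with the same FPKM total (limma adjusted p 0.115). Slc25a20, the carnitine-acylcarnitine carrier of the inner membrane, fell by 2.08 on the log2 scale (SE 0.16, adjusted p 8.44e-06 by limma) relative to NL, with no call between the tumor groups (-0.73, limma adjusted p 0.515). Cpt1b, the muscle form of Cpt1a, held 1 to 3 reads per library in NL, 11 to 13 in c-MYC and 3 to 7 in c-MYC/FOXO1AAA and was the only member under the filter. Of its sequence windows of 50 bases, 93% also occur in the annotated gene Gm44502, so its level is uncertain.

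**Figure D3:**
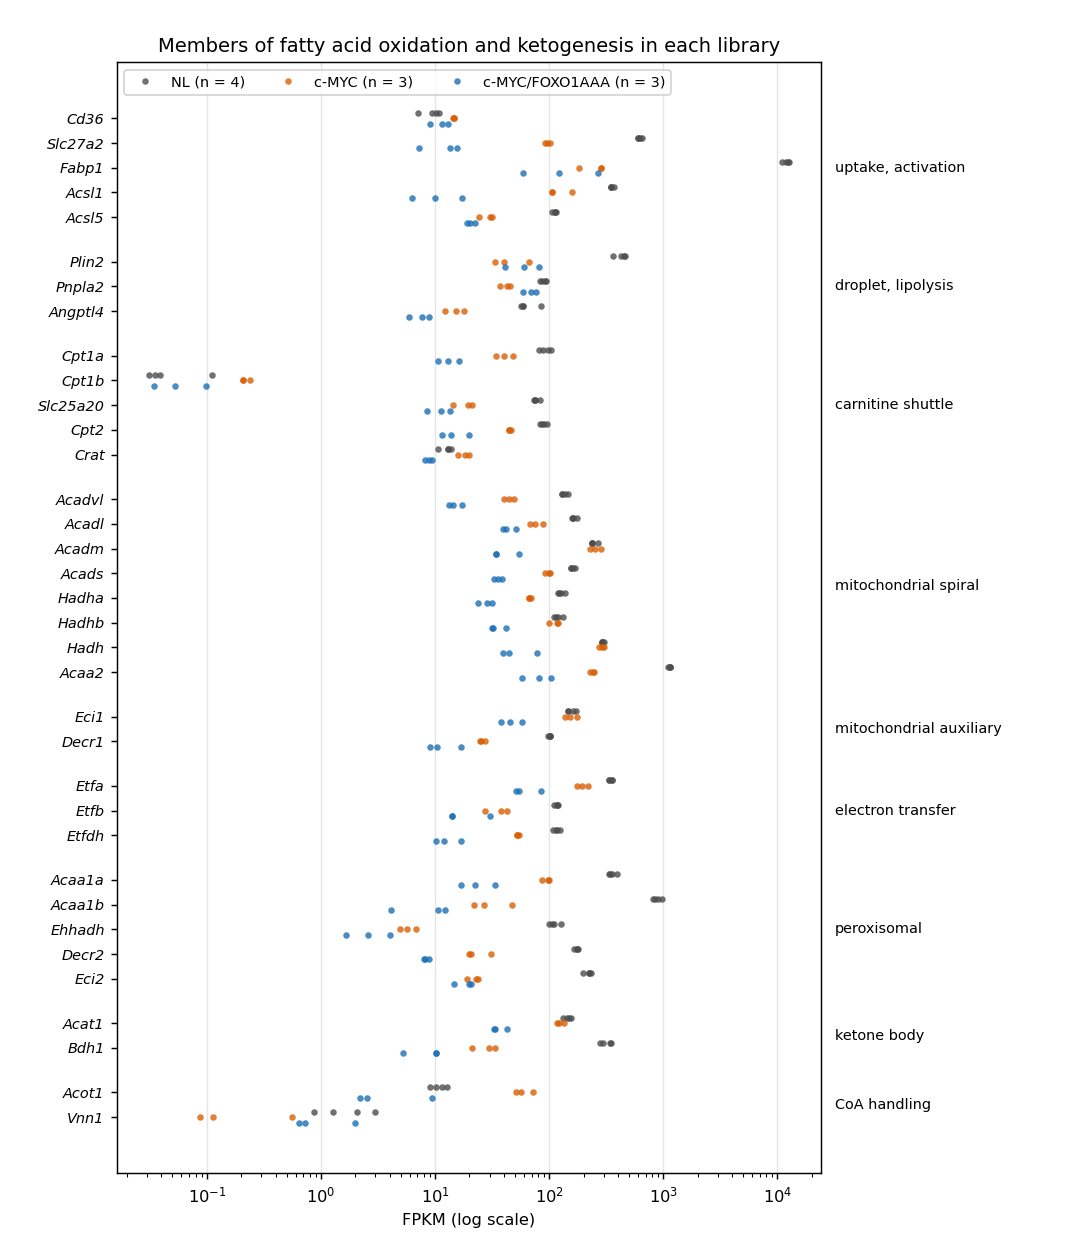
FPKM of the 35 members in each library on a log axis, ordered by step. Each point is a library (NL n = 4, c-MYC n = 3, c-MYC/FOXO1AAA n = 3). NL and c-MYC points overlap for Acadm, Hadh, Hadhb, Eci1 and Acat1, and c-MYC/FOXO1AAA points lie to their left.

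Within the mitochondrial spiral, 4 of 8 members were lower in c-MYC and 7 of 8 lower with FOXO1AAA than in the control tumors, against 23.6% and 12.7% of all tested genes. The spiral members had median log2 fold changes of -0.81 and -1.58. Against NL all 8 were lower in c-MYC/FOXO1AAA (median -2.34), against 26.6% of all tested genes, Hadhb not passing with the same FPKM total (limma adjusted p 0.246). The 4 acyl-CoA dehydrogenases, which open each turn, differ in the chain length they accept. Acadvl, for very long chains, held 145, 130, 137 and 130 FPKM in NL, 49.3, 40 and 44.3 FPKM in c-MYC and 13.3, 14.4 and 17.3 FPKM in c-MYC/FOXO1AAA. Its groups were separate, and it fell by 1.61 on the log2 scale (SE 0.11, adjusted p 9.52e-06 by limma) and then by 1.57 on the log2 scale (SE 0.12, adjusted p 3.98e-05 by limma). Of the annotated exon bases of Acadvl, 42.9% overlap Dvl2 on the other strand, and the sources used here do not say whether counting used strand.

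Acadm (GRCm38 chr3:153922357-153944632, minus strand), for medium chains, was near its NL level in c-MYC tumors. It held 265, 237, 239 and 237 FPKM in NL, 283, 250 and 230 FPKM in c-MYC and 34.4, 34.5 and 54.6 FPKM in c-MYC/FOXO1AAA. NL and c-MYC overlapped, and the 3 c-MYC/FOXO1AAA libraries lay far below both. The log2 fold change was 0.05 in c-MYC (95% interval -0.3 to 0.4, limma adjusted p 1), then -2.66 (SE 0.17, adjusted p 2.39e-06 by limma). Acads, for short chains, had 163, 156, 169 and 155 FPKM in NL, 102, 91.7 and 99.8 FPKM in c-MYC and 32.6, 35.3 and 38.4 FPKM in c-MYC/FOXO1AAA. Its groups did not overlap, but the first difference of -0.72 did not pass (limma adjusted p 0.156) and the second was -1.47 (SE 0.094, adjusted p 1.62e-05 by limma). Acadl, for long chains, fell by 1.11 on the log2 scale (SE 0.11, adjusted p 0.00144 by limma) relative to NL. Between the tumor groups its difference of -0.79 was not called (limma adjusted p 0.171), and without c-MYC/FOXO1AAA 3 it was, at -0.9 (limma adjusted p 0.0404).

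The later steps of each turn are carried out by the trifunctional protein, with Hadha and Hadhb as subunits, by Hadh and by the thiolase Acaa2. Hadha had 137, 121, 119 and 126 FPKM in NL, 66.2, 66 and 69.5 FPKM in c-MYC and 23.9, 28.3 and 31.6 FPKM in c-MYC/FOXO1AAA. It was -0.9 (SE 0.11, adjusted p 0.0145 by limma) in c-MYC, a sign that turned to 0.03 with the same FPKM total, and -1.28 (SE 0.11, adjusted p 0.000321 by limma) between the tumor groups. Hadhb had 132, 111, 114 and 120 FPKM in NL, 120, 100 and 117 FPKM in c-MYC and 31.3, 32 and 41.6 FPKM in c-MYC/FOXO1AAA. NL and c-MYC overlapped for Hadhb, with no call (-0.08, 95% interval -0.35 to 0.19, limma adjusted p 1), and the tumor groups differed by -1.69 (SE 0.13, adjusted p 3.11e-05 by limma). Of the windows of Hadhb, 62.9% also occur in other annotated genes, most of them in Gm13910, so its level is uncertain.

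Hadh, the dehydrogenase for short hydroxyacyl chains, showed the same order as Acadm. Its libraries held 305, 288, 292 and 289 FPKM in NL, 300, 290 and 273 FPKM in c-MYC and 39.2, 44.4 and 77.7 FPKM in c-MYC/FOXO1AAA. The first 2 groups overlapped, with a difference of -0.03 (95% interval -0.45 to 0.39, limma adjusted p 1), and the second contrast gave -2.48 (SE 0.2, adjusted p 1.64e-05 by limma). Acaa2, the most abundant spiral member in NL, held 1154, 1090, 1146 and 1134 FPKM there, 247, 242 and 229 FPKM in c-MYC and 57.7, 82.2 and 104 FPKM in c-MYC/FOXO1AAA. It was lower in both contrasts, by 2.24 on the log2 scale (SE 0.16, adjusted p 4.23e-06 by limma) and by 1.59 on the log2 scale (SE 0.17, adjusted p 0.00047 by limma).

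The auxiliary enzymes Eci1 and Decr1 prepare unsaturated chains for the spiral. Eci1 held 172, 147, 163 and 147 FPKM in NL, 177, 138 and 153 FPKM in c-MYC and 37.5, 45 and 57.4 FPKM in c-MYC/FOXO1AAA. It resembled Acadm and Hadh, with overlapping NL and c-MYC libraries and -1.75 (SE 0.15, adjusted p 7.51e-05 by limma) between the tumor groups. Decr1 had 101, 98, 102 and 102 FPKM in NL, 25.3, 24.8 and 27.5 FPKM in c-MYC and 8.94, 10.5 and 16.9 FPKM in c-MYC/FOXO1AAA. It fell by 1.96 on the log2 scale (SE 0.18, adjusted p 2.88e-05 by limma) relative to NL and by 1.14 on the log2 scale (SE 0.19, adjusted p 0.0249 by limma) between the tumor groups. The second call was lost without c-MYC/FOXO1AAA 1, c-MYC/FOXO1AAA 2 or c-MYC 3 (limma adjusted p 0.101, 0.0852 and 0.0719) and with the same FPKM total (limma adjusted p 0.069).

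The electron transfer flavoprotein, built from Etfa and Etfb, takes the electrons of the acyl-CoA dehydrogenases and hands them to Etfdh. Etfa, which carries a DR1 match, held 353, 358, 332 and 335 FPKM in NL, 218, 177 and 194 FPKM in c-MYC and 54.2, 51.1 and 84.1 FPKM in c-MYC/FOXO1AAA. The groups were separate. The first difference of -0.81 was not called (limma adjusted p 0.164), though it was without c-MYC/FOXO1AAA 3 (limma adjusted p 0.0325), and the second was -1.67 (SE 0.17, adjusted p 0.000248 by limma). Etfdh had 125, 114, 109 and 117 FPKM in NL, 54.8, 52 and 51.9 FPKM in c-MYC and 10.2, 11.9 and 17 FPKM in c-MYC/FOXO1AAA. It was lower in both contrasts, by 1.13 on the log2 scale (SE 0.15, adjusted p 0.00501 by limma) and by 2.05 on the log2 scale (SE 0.16, adjusted p 1.79e-05 by limma). Etfb fell by 1.72 on the log2 scale (SE 0.25, adjusted p 0.00165 by limma) relative to NL. Its second difference of -0.95 did not pass (limma adjusted p 0.271), and without c-MYC/FOXO1AAA 3 it did, at -1.32 (limma adjusted p 0.00314). Of the windows of Etfb, 67.3% also occur in Gm45233, so its level is uncertain.

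All 5 peroxisomal members were lower in c-MYC than in NL, with a median log2 fold change of -3.31, and 3 of the 5 were lower again in c-MYC/FOXO1AAA (median -1.49). Over all tested genes the shares called lower were 23.6% and 12.7%. The median of the peroxisomal members minus that of the mitochondrial spiral was -2.5 in c-MYC against NL, 0.09 between the tumor groups and -2.03 in c-MYC/FOXO1AAA against NL. These differences between steps are descriptions with no test.

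Acaa1a and Acaa1b (GRCm38 chr9:119148023-119157093, minus strand) are the peroxisomal thiolases, and 34% and 35.5% of their windows are shared with each other, so part of their reads could be split between them. Acaa1b held 850, 965, 898 and 815 FPKM in NL, 27, 21.8 and 46.9 FPKM in c-MYC and 4.13, 12.2 and 10.7 FPKM in c-MYC/FOXO1AAA. Each group lay wholly below the one before. It fell by 4.86 on the log2 scale (SE 0.35, adjusted p 1.85e-06 by limma), then by 1.88 on the log2 scale (SE 0.38, adjusted p 0.0135 by limma), and the second call was lost without c-MYC 3 (-1.57, limma adjusted p 0.0506). Acaa1a had 392, 333, 356 and 344 FPKM in NL, 100, 85.9 and 97 FPKM in c-MYC and 16.9, 22.2 and 33.4 FPKM in c-MYC/FOXO1AAA. It fell by 1.92 on the log2 scale (SE 0.19, adjusted p 6.04e-05 by limma) and by 2.02 on the log2 scale (SE 0.2, adjusted p 0.00011 by limma). The order of the thiolases turned over: Acaa1b stood at 2.17 to 2.9 times Acaa1a in the NL libraries, at 0.254 to 0.484 times in c-MYC and at 0.244 to 0.55 times in c-MYC/FOXO1AAA.

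Ehhadh is the peroxisomal bifunctional enzyme and a textbook target of PPARα. It held 100, 128, 105 and 110 FPKM in NL, 5.7, 4.91 and 6.85 FPKM in c-MYC and 1.65, 4.03 and 2.57 FPKM in c-MYC/FOXO1AAA. Every tumor library was far below every normal liver. It fell by 4.25 on the log2 scale (SE 0.25, adjusted p 3.15e-07 by limma) relative to NL. The second difference of -1.15 was not called (limma adjusted p 0.0922), and it was with quantile normalization and without c-MYC/FOXO1AAA 2 (-1.47 in both, limma adjusted p 0.0208 and 0.00501).

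Decr2 and Eci2 handle unsaturated chains in peroxisomes. Decr2 had 178, 177, 164 and 174 FPKM in NL, 31, 20.7 and 19.9 FPKM in c-MYC and 8.02, 8.08 and 8.77 FPKM in c-MYC/FOXO1AAA. Its groups were separate, with a fall by 2.89 on the log2 scale (SE 0.14, adjusted p 1.22e-07 by limma) and a further fall by 1.49 on the log2 scale (SE 0.15, adjusted p 0.000387 by limma). Eci2 had 232, 197, 223 and 222 FPKM in NL, 23, 19.1 and 23.8 FPKM in c-MYC and 14.7, 20 and 20.8 FPKM in c-MYC/FOXO1AAA. Its called change lay between NL and c-MYC, where it fell by 3.31 on the log2 scale (SE 0.13, adjusted p 2.59e-08 by limma), and the tumor groups overlapped (-0.25, 95% interval -0.57 to 0.06, limma adjusted p 1).

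Among 22 further peroxisomal genes, 16 (72.7%, against 23.6% of all tested genes) were lower in c-MYC than in NL with limma treat. Higher there were 0, against 24.5% of all tested genes. With FOXO1AAA, 14 (63.6%, against 12.7%) were lower and 1 (4.55%, against 15.9%) higher than in the control tumors. Scp2, a sterol carrier and thiolase, went from 6345 FPKM (n = 4, SD 269) in NL to 509 FPKM (n = 3, SD 6.91) in c-MYC and 177 FPKM (n = 3, SD 41.9) in c-MYC/FOXO1AAA, with log2 differences of -3.64 (SE 0.15, adjusted p 2.28e-08 by limma) and -1.55 (SE 0.16, adjusted p 0.000331 by limma). Its FPKM rest on a length of 772 bases, where 9 transcripts are annotated, and do not tell its forms apart. Hsd17b4, the second bifunctional enzyme, fell by 2.26 on the log2 scale (SE 0.084, adjusted p 2.87e-08 by limma) relative to NL, with no call between the tumor groups (-0.69, limma adjusted p 0.325). Ech1, a dienoyl-CoA isomerase, fell by 1.88 on the log2 scale (SE 0.14, adjusted p 9.55e-06 by limma) and by 1.11 on the log2 scale (SE 0.15, adjusted p 0.0116 by limma), the latter missing the threshold without c-MYC/FOXO1AAA 1 (limma adjusted p 0.0503).

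Among genes of that list with at least 5 FPKM in a tumor group, the largest falls between the tumor groups were those of Acot4 (-3.98), Pecr (-3.44) and Abcd2 (-3.24), while Acox3 rose. The mean of Abcd2 in c-MYC/FOXO1AAA, 0.727 FPKM, was 0.339 FPKM without library 3. Pecr, a peroxisomal enoyl-CoA reductase, was 165 FPKM (n = 3, SD 7.79) in c-MYC and 15.9 FPKM (n = 3, SD 6.68) in c-MYC/FOXO1AAA. Acox3, an acyl-CoA oxidase, was 2.32 FPKM (n = 3, SD 0.287) and 6.09 FPKM (n = 3, SD 1.16), a rise by 1.37 on the log2 scale (SE 0.17, limma adjusted p 0.0018). Among 17 further mitochondrial genes, 10 (58.8%, against 23.6% of all tested genes) were lower in c-MYC and 2 (11.8%, against 24.5%) higher. Between the tumor groups, 7 (41.2%, against 12.7%) were lower and 1 (5.88%, against 15.9%) higher. Those higher were Acot2 and Cpt1c in the first contrast and Acsm5 in the second (2.17, limma adjusted p 0.00581, and 0.0556 with a pseudocount of 1 FPKM), Cpt1c and Acsm5 being named after their values were seen. Acad11, an acyl-CoA dehydrogenase, fell by 2.24 on the log2 scale (SE 0.13, adjusted p 6.48e-07 by limma) and by 2.22 on the log2 scale (SE 0.14, adjusted p 2.7e-06 by limma). Acsm3, a medium chain acyl-CoA synthetase, fell by 4.07 on the log2 scale (SE 0.39, adjusted p 3.2e-05 by limma) between the tumor groups, with its highest c-MYC/FOXO1AAA value in library 3, and the group mean was 0.581 FPKM without it in place of 0.999 FPKM.

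Both ketone body members, Bdh1 and Acat1, were lower with FOXO1AAA than in the control tumors, while Oxct1 was higher. Bdh1 (GRCm38 chr16:31422280-31458901, plus strand) makes β-hydroxybutyrate from acetoacetate. It held 345, 298, 279 and 344 FPKM in NL, 21.1, 33.6 and 29.4 FPKM in c-MYC and 5.24, 10.2 and 10.1 FPKM in c-MYC/FOXO1AAA. The 3 groups were separate, in descending order. It fell by 3.52 on the log2 scale (SE 0.24, adjusted p 1.2e-06 by limma) relative to NL and by a further 1.74 on the log2 scale (SE 0.25, adjusted p 0.00248 by limma). Acat1, the mitochondrial acetoacetyl-CoA thiolase, held 154, 133, 142 and 150 FPKM in NL, 134, 117 and 122 FPKM in c-MYC and 33.3, 32.6 and 42.3 FPKM in c-MYC/FOXO1AAA. NL and c-MYC overlapped for Acat1, at -0.22 (95% interval -0.47 to 0.03, limma adjusted p 1), and only the second contrast passed, with -1.79 (SE 0.12, adjusted p 8.77e-06 by limma).

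Oxct1 (GRCm38 chr15:4026383-4155344, plus strand) encodes the CoA transferase with which tissues other than liver burn ketone bodies. It held 1.23, 1.38, 1.63 and 1.67 FPKM in NL, 6.4, 12.6 and 5.16 FPKM in c-MYC and 56.1, 50.6 and 55.7 FPKM in c-MYC/FOXO1AAA. The groups rose in that order without overlap, and Oxct1 was higher in both contrasts. It rose by 2.32 (SE 0.26, adjusted p 8.98e-05 by limma) and then by 2.85 (SE 0.27, adjusted p 4.02e-05 by limma) on the log2 scale.

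Slc16a1, the monocarboxylate transporter MCT1 that carries ketone bodies and lactate, held 14.7, 11.8, 12.2 and 11.2 FPKM in NL, 63.8, 68 and 52.9 FPKM in c-MYC and 26.2, 30.5 and 28.1 FPKM in c-MYC/FOXO1AAA. It was highest in c-MYC and intermediate in c-MYC/FOXO1AAA, changing by 2.3 (SE 0.12, adjusted p 4.08e-07 by limma) and then by -1.12 (SE 0.13, adjusted p 0.00512 by limma) on the log2 scale. Slc16a6, a transporter linked to export of β-hydroxybutyrate from the liver, rose in c-MYC by 2.78 on the log2 scale (SE 0.21, limma adjusted p 3.08e-06), to 5.01 FPKM (n = 3, SD 0.608). Its second difference of -0.97 was not called by treat (limma adjusted p 0.166) but was by limma-voom (adjusted p 0.0232) and with quantile normalization (limma adjusted p 0.00583). Slc16a7, the transporter MCT2, fell by 4.47 on the log2 scale (SE 0.28, adjusted p 4.8e-07 by limma) relative to NL, with overlapping tumor groups. Aacs, which makes acetoacetyl-CoA in the cytosol, fell by 3.8 on the log2 scale (SE 0.33, adjusted p 8.51e-06 by limma) relative to NL. Bdh2 fell by 2.79 on the log2 scale (SE 0.26, adjusted p 1.78e-05 by limma) relative to NL, and its second difference of -1.28 lay near the threshold (limma adjusted p 0.0549, 0.00152 without c-MYC 1 and 0.00237 with quantile normalization).

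**Figure D4:**
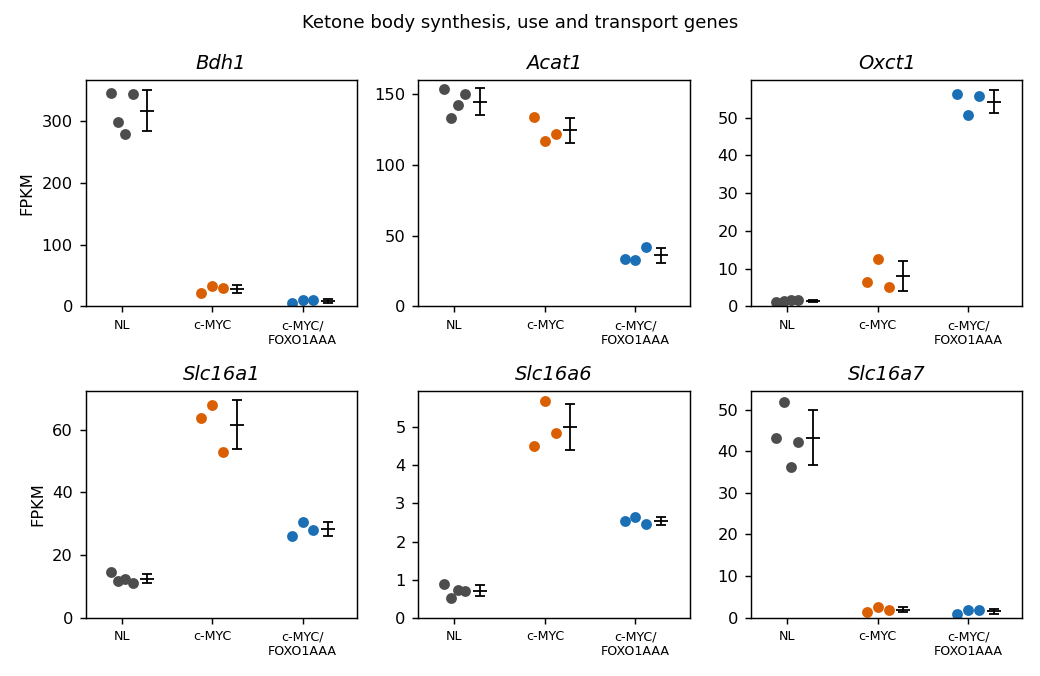
FPKM of 6 genes of ketone body metabolism (Bdh1, Acat1, Oxct1) and transport (Slc16a1, Slc16a6, Slc16a7) in each library, with the mean and SD of each group in black (n = 4, 3 and 3). Each axis starts at 0. Bdh1 and Acat1 are lowest in c-MYC/FOXO1AAA, where Oxct1 is highest at 54.1 FPKM against 1.48 FPKM in NL.

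Acot1 (GRCm38 chr12:84009490-84018371, plus strand), a cytosolic acyl-CoA thioesterase, was the only member higher in c-MYC than in NL. It held 12.7, 10.1, 11.4 and 8.98 FPKM in NL, 50.8, 56.2 and 72 FPKM in c-MYC and 2.54, 2.22 and 9.4 FPKM in c-MYC/FOXO1AAA. The c-MYC libraries were well above all others, and c-MYC/FOXO1AAA 3 overlapped NL. Acot1 rose by 2.46 on the log2 scale (SE 0.41, limma adjusted p 0.00165) and then fell by 3.95 on the log2 scale (SE 0.44, adjusted p 9.26e-05 by limma). Leaving out c-MYC/FOXO1AAA 3 moved the mean of that group from 4.72 to 2.38 FPKM. Against NL it was -1.5 (limma adjusted p 0.0459) in c-MYC/FOXO1AAA, which passed under 8 of 23 alternatives. Of the windows of Acot1, 33.2% occur in other genes and 23.9% in Acot2, which also rose in c-MYC (1.99) and fell between the tumor groups (-1.57). Vnn1, a pantetheinase that takes part in CoA turnover, fell by 2.81 on the log2 scale (SE 0.61, adjusted p 0.00578 by limma) relative to NL, a call that a pseudocount of 1 FPKM ended (limma adjusted p 0.1), and leaving out c-MYC 3 moved the mean of that group from 0.255 to 0.1 FPKM. Between the tumor groups Vnn1 differed by 2.1 (limma adjusted p 0.0728), and without c-MYC 3 by 2.78 (limma adjusted p 0.0101). Leaving out c-MYC/FOXO1AAA 2 moved the mean of that group from 1.11 to 0.678 FPKM.

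The regulators of the pathway were read beside the members. Of 18 regulators and PPARα targets, 13 (72.2%, against 23.6% of all tested genes) were lower in c-MYC than in NL with limma treat. Higher there were 0, against 24.5% of all tested genes. With FOXO1AAA, 5 (27.8%, against 12.7%) were lower and 4 (22.2%, against 15.9%) higher than in the control tumors. Ppara (GRCm38 chr15:85734983-85802819, plus strand), the gene of PPARα, held 40.5, 58.6, 38.2 and 49.1 FPKM in NL, 7.4, 9.65 and 6.85 FPKM in c-MYC and 0.951, 1.48 and 1.36 FPKM in c-MYC/FOXO1AAA. The groups were separate, in descending order. It fell by 2.54 on the log2 scale (SE 0.2, adjusted p 5.46e-06 by limma) and by 2.62 on the log2 scale (SE 0.21, adjusted p 1.31e-05 by limma). Rxra, its partner receptor, fell by 1.87 on the log2 scale (SE 0.13, adjusted p 5.67e-06 by limma) and by 1.05 on the log2 scale (SE 0.14, adjusted p 0.0155 by limma), the second missing the threshold without c-MYC/FOXO1AAA 1 or c-MYC 2 (limma adjusted p 0.0641 and 0.0588) and with the same FPKM total (limma adjusted p 0.11). Creb3l3, a liver transcription factor of the fasting response, fell by 2.12 on the log2 scale (SE 0.34, adjusted p 0.00181 by limma) and by 2.57 on the log2 scale (SE 0.37, adjusted p 0.00093 by limma). Its first call was lost with the same FPKM total (-1.19, limma adjusted p 0.0736). Those higher were Pdk4, Ppargc1a, Fgf21 and Cyp4a32, and Pparg was the remaining 1 that was lower (Fgf21, Cyp4a32 and Pparg being named after their values were seen). Acot12, an acetyl-CoA hydrolase, fell by 2.51 on the log2 scale (SE 0.25, adjusted p 3.6e-05 by limma) and by 2.89 on the log2 scale (SE 0.27, adjusted p 3.12e-05 by limma).

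Pdk4, the kinase that shuts pyruvate out of oxidation, was lower in c-MYC than in NL and higher with FOXO1AAA than in the control tumors. It held 0 to 0.109 FPKM in the c-MYC libraries and 19.8 to 24.5 FPKM in c-MYC/FOXO1AAA (limma adjusted p 2.57e-07), above the 0.852 to 1.55 FPKM of NL. Ppargc1a, a coactivator of oxidative genes, held 2.07 to 2.82 FPKM in NL, 0.0169 to 0.189 FPKM in c-MYC and 0.22 to 0.363 FPKM in c-MYC/FOXO1AAA. Its rise between the tumor groups (2.02, limma adjusted p 0.0472) passed under 6 of 22 alternatives, and leaving out c-MYC 2 moved the mean of that group from 0.0798 to 0.0253 FPKM. Among 26 tested genes of uptake, droplets and lipid storage, 15 (57.7%, against 23.6% of all tested genes) were lower in c-MYC. Higher in c-MYC were 6 (23.1%, near the 24.5% of all tested genes). Between the tumor groups 11 (42.3%, against 12.7%) were lower and 2 (7.69%, against 15.9%) were higher, Slc27a1 and Lipe. G0s2, an inhibitor of Pnpla2, was 42.2, 41.6 and 50.9 FPKM in c-MYC and 1.44, 1.31 and 9.37 FPKM in c-MYC/FOXO1AAA, and it fell by 4.01 on the log2 scale (SE 0.68, adjusted p 0.00153 by limma), with a mean of 1.38 FPKM without library 3 in place of 4.04 FPKM. Dgat2, which makes triglyceride, fell by 3.33 on the log2 scale (SE 0.25, adjusted p 6.87e-06 by limma), Acsl3, an acyl-CoA synthetase, fell by 1.74 on the log2 scale (limma adjusted p 0.000522), and Slc27a1, a fatty acid transporter, rose by 1.84 on the log2 scale (limma adjusted p 0.000112).

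The c-MYC/FOXO1AAA libraries differed among themselves across many members. In c-MYC/FOXO1AAA 3, 26 of the 35 members were at the highest level of the group, and in c-MYC/FOXO1AAA 1, 28 were at the lowest. The same was not counted over all genes, so it is not read as particular to the members. Without Fabp1 the members summed to 683, 827 and 1015 FPKM in libraries 1, 2 and 3. The 9 hepatocyte markers summed to 1010, 1766 and 1861 FPKM in the same libraries. Without c-MYC/FOXO1AAA 3, 25 members were lower than in c-MYC, and without c-MYC/FOXO1AAA 1, 20 were.

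Markers of cell types moved with the groups too. The 9 hepatocyte markers (such as Alb, Ttr and Hnf4a) summed to 7.09% of NL in c-MYC and 1.69% in c-MYC/FOXO1AAA, or 11.7% and 1.87% without Alb. In each contrast in turn 7 of the 9 were lower, and 1 (Apoc3) was higher with FOXO1AAA than in the control tumors. Hnf4a was not called in c-MYC against NL (limma adjusted p 0.145), and Alb was not called between the tumor groups (-0.28). A second list, of 16 adult liver genes, summed to 2.24% of NL in c-MYC and 1.17% in c-MYC/FOXO1AAA. All 16 were lower in c-MYC than in NL, but between the tumor groups 8 were higher and 5 lower, with a median of 1.86. Over all tested genes, 23.6% were lower and 24.5% higher in c-MYC than in NL. Between the tumor groups the shares were 12.7% and 15.9%. The sum of the 7 stellate markers ran from 82.6 to 105 FPKM in NL, 10.4 to 34 FPKM in c-MYC and 358 to 454 FPKM in c-MYC/FOXO1AAA. In c-MYC 4 of the 7 were lower than in NL and 1 was higher. Between the tumor groups 5 were higher (Reln, Des, Pdgfrb, Col3a1 and Dcn). Dcn held 236 FPKM of the mean sum of 403 FPKM in c-MYC/FOXO1AAA. Against NL, 5 of the 7 were higher in c-MYC/FOXO1AAA, and Lrat was lower (-3.93, limma adjusted p 9.3e-05). The sum of the 9 skeletal muscle markers ran from 0.506 to 0.848 FPKM in NL, from 1.75 to 6.81 FPKM in c-MYC and from 269 to 348 FPKM in c-MYC/FOXO1AAA, where 6 of 7 tested were higher than in c-MYC. In NL, 7 of the 9 held 3 reads or fewer in every library. The macrophage and endothelial lists did not move as one. The 8 macrophage markers summed to 198 to 349 FPKM in NL, 103 to 143 FPKM in c-MYC and 46.8 to 80 FPKM in c-MYC/FOXO1AAA. In c-MYC 3 of them were lower than in NL and Cd68 was higher, and Clec4f, the most abundant, went from 208 to 4.47 FPKM. Without Clec4f the list stood at 163% of NL in c-MYC and 60.8% in c-MYC/FOXO1AAA. The 8 endothelial markers summed to 47.6 to 63.4 FPKM in NL, 13.3 to 21.4 FPKM in c-MYC and 30.1 to 43 FPKM in c-MYC/FOXO1AAA. Of the 7 tested, 4 were lower in c-MYC than in NL, with Clec4g going from 33.5 to 0.132 FPKM, and only Cdh5 was higher with FOXO1AAA than in the control tumors, with 25.9 FPKM of the mean sum of 34.6 FPKM. Apoc3, the 5 stellate genes, Lrat, Cd68, Clec4f, Clec4g and Cdh5 were named after their values were seen. The part of these changes in the members' levels was not tested.

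**Figure D5:**
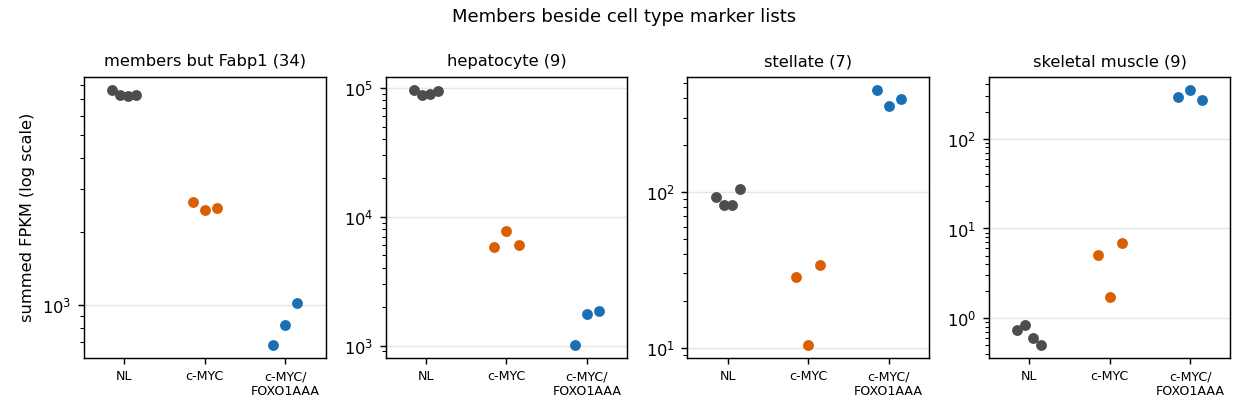
Summed FPKM in each library (log axes) of the members without Fabp1 and of marker lists for hepatocytes, stellate cells and skeletal muscle, with the number of genes in brackets. Points are libraries (NL n = 4, c-MYC n = 3, c-MYC/FOXO1AAA n = 3). The sums of members and hepatocyte markers decline from NL to c-MYC/FOXO1AAA, and the sums of stellate and muscle markers are highest in c-MYC/FOXO1AAA. Single markers within a list did not all move with its sum.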

How the data were processed

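Libraries came from RNA of 4 normal livers, 3 c-MYC and 3 c-MYC/FOXO1AAA tumors, selected by polyA capture or rRNA removal (the labels state both). The authors deposited log2 FPKM values with a prior count and scaled library sizes. FastQC 0.11.7 and genome build GRCm38 stand in the submitters' processing notes, and the aligner, counter and strand setting are not given in the sources used here. Of 17069 entries, 372 had no symbol and were left out.

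Steps in the values equal to whole reads were solved with a prior count of 2 and gave 1 solution for 16665 of 16697 genes (99.81%). Printed FPKM are recovered reads over gene length and effective library size, without the prior. The deposited values hold 1 length per gene, which equals that of an annotated transcript in 32 of the 35 members. Some lengths are short (702 bases for Cd36 and 996 for Plin2), and the lengths bear on FPKM and on sums over genes. Log2 fold changes were fitted on the deposited log2 scale, which understates changes of low genes. The 14017 genes reaching 1 FPKM in 3 or more libraries were tested with limma 3.58.1 treat (R 4.3.3, statmod 1.5.0, trend and robust) in 1 fit of all 3 groups against a 1.5-fold change, with Benjamini-Hochberg adjustment and a threshold of 0.05. The fit was tested on simulated data in which known changes had been set between the 2 tumor groups. Of 82 genes changed by 1 on the log2 scale, 4 were called. At changes of 2 and 3 the calls were 61 of 67 and 46 of 46. A gene with no call between the tumor groups may therefore still differ by about 1 on the log2 scale. Alternatives covered scaling, filter, pseudocount, threshold, limma-voom on recovered reads and each library left out. For summed levels, the same FPKM total and a sum without its most abundant NL gene were alternatives chosen after seeing the data. No libraries of a group agreed within sampling noise (chi-square per degree of freedom 10.11 to 36.85).

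Members and lists were chosen with earlier results of these data known. Named were all members, with library values for those called between the tumor groups, the 5 largest changes each way in c-MYC against NL and all peroxisomal and ketone members. Of the other genes, ketone body genes, Hsd17b4, Scp2, Ech1, Ppara, Ppargc1a, Rxra and Pdk4 were named, with the 3 largest called changes each way between the tumor groups per list at a mean of at least 5 FPKM. Promoters were RefSeq sequences. Some results that this rule names are not reported here.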

Additional observations from a re-analysis of the deposited data

Results flagged for a closer look

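In 5 of the 35 members, 1 of the 4 NL libraries stood apart from the other 3 for the range of the group (Dixon's test at the 95% level, which chance passes in about 1 of 20 groups). The test sets the gap against the range, so a small difference among close values can pass, as in Decr1. Cpt1b held only 1 to 3 reads in the NL libraries. Angptl4 was 84.6 FPKM in NL 3 against 56.6 to 58.8 FPKM in the others. Acadm was 265 FPKM in NL 1 against 237 to 239 FPKM, and Acsl1 was 367 FPKM in NL 1 against 346 to 348 FPKM. Decr1 was 98 FPKM in NL 2 against 101 to 102 FPKM. Cpt1b was 0.11 FPKM in NL 2 against 0.0313 to 0.0385 FPKM, and its NL mean of 0.0538 FPKM was 0.035 FPKM without that library. The tumor groups, with 3 libraries each, were not tested for outliers.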

How the results depend on the processing

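With the same FPKM total in each library, 15 members were lower in c-MYC than in NL in place of 24 and 6 higher in place of 1, while between the tumor groups 1 was higher, and against NL 1 was higher in c-MYC/FOXO1AAA, in place of 0. Shares of all genes called under the alternatives were not counted. Members higher in c-MYC than in NL numbered 2 with no filter and 3 with no fold-change threshold. Between the tumor groups, members higher with FOXO1AAA numbered 2 with no fold-change threshold, 1 with quantile normalization and 0 to 1 with a library left out (1 without c-MYC 3). With a library left out, the lower counts ranged over 23 to 25 for c-MYC against NL, 20 to 25 between the tumor groups and 29 to 30 for c-MYC/FOXO1AAA against NL. Under quantile normalization the peroxisomal minus spiral median was -0.04 in place of 0.09 between the tumor groups and -2.33 in place of -2.03 in c-MYC/FOXO1AAA against NL. Signs turned in c-MYC against NL with the same FPKM total for Acads (0.21), Hadh (0.9), Hadha (0.03), Hadhb (0.85), Eci1 (0.91), Etfa (0.11), Acat1 (0.71), Acot4 (0.08), Pecr (0.16), Slc27a1 (0.17) and G0s2 (0.01), and with quantile normalization for Hadh (0.72), Hadhb (0.37), Eci1 (0.56) and Acat1 (0.3). In c-MYC/FOXO1AAA against NL they turned with the same total for Crat (0.58), Pnpla2 (0.71, and 0.2 with quantile normalization), Vnn1 (0.39), Acox3 (0.39) and Acsl3 (0.87). With a library left out, the c-MYC against NL difference ranged from -0.03 to 0.12 for Acadm, -0.06 to 0.01 for Hadh and -0.11 to 0.07 for Eci1. The cause was not tested. Of 4404 gene values under alternatives, 4238 kept their direction and side of the threshold.

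Replicate numbers did not pair the samples (correlations of same-numbered libraries -0.04 to 0.027). With the replicate number as a block, 23, 23 and 30 members were lower and 1, 0 and 0 higher in c-MYC against NL, c-MYC/FOXO1AAA against c-MYC and c-MYC/FOXO1AAA against NL. The block left Cpt2 in c-MYC against NL (limma adjusted p 0.0607) and Ppargc1a between the tumor groups (limma adjusted p 0.0532) short of the threshold, and Angptl4 and Bdh2 passed it between the tumor groups (limma adjusted p 0.0386 and 0.045).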

Other observations

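Among the other cell type markers, Spp1 was lower in c-MYC than in NL (-3.73, limma adjusted p 1.19e-06) and higher with FOXO1AAA between the tumor groups (4.11, limma adjusted p 1.92e-06), and Epcam went the opposite way (3.71 and -3, limma adjusted p 1.79e-05 and 0.000354). The 16 adult liver genes were all lower in c-MYC than in NL, against 23.6% of all tested genes. Between the tumor groups 8 of them were higher and 5 lower, against 15.9% and 12.7% of all tested genes. Spp1 and Epcam were named after their values were seen. The 5 biliary markers summed to 103% and 147% of NL in c-MYC and c-MYC/FOXO1AAA (673% and 250% without Spp1), and the 3 leukocyte markers to 107% and 43.3% (74.3% and 12.7% without Ptprc).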
